A study of Mus musculus with 10 samples.

Results

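The enzymes that build cholesterol and fatty acids, with the proteins that switch their genes on, were followed as 30 genes in macrophages sorted from 4T1 tumours. The 30 were chosen by name from the 46603 rows of the deposited count table. Each matched 1 row, and all 30 passed the filter on low counts. 4T1 cells come from a mammary carcinoma of the mouse and grow into tumours after grafting. Viable CD11B+, F4/80+ cells, the usual surface pair of mouse macrophages, were sorted into PDPN+ cells, which the submitters call PoEMs, and PDPN- cells. PDPN is podoplanin, a membrane glycoprotein. Both fractions were taken from tumours 1, 2, 4, 5 and 6, so each of the 2 groups holds 5 of the 10 libraries. The labels give no mouse strain, age or treatment, and do not say whether each tumour came from its own mouse.

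Cells keep their sterol content steady through SREBP2 and SREBP1, transcription factors made from Srebf2 and Srebf1 that are held in the endoplasmic reticulum while sterols are plentiful. SCAP carries the SREBPs to the Golgi for cleavage when sterols run low, and INSIG proteins hold SCAP back. SREBP2 chiefly drives genes of the mevalonate and sterol steps, and SREBP1 those of fatty acid synthesis and desaturation. Macrophages take up much lipid from dead cells and also make their own.

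The question of the comparison was whether this pathway differs between podoplanin-positive and podoplanin-negative macrophages. The differences between fractions were small. None of the 30 genes passed the test between fractions when the tumour was left out of the model (Benjamini-Hochberg adjusted p under 0.05 in edgeR's quasi-likelihood test). Over all 13595 genes tested, 6.83% were called higher and 6.77% lower in the same test. With each tumour's 2 libraries compared as a pair, the tumour being a block in the model, 3 members were lower in PDPN-positive libraries (Insig1, Pmvk and Cyp51) and 2 were higher (Acly and Scd2). In that fit 13.8% of all genes were higher and 14.3% lower, so the share of members called was not above the background. Against this, 17 of the 30 differed between tumours in the same fit, where 13.7% of all genes did.

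The stretches before the start sites of 5 members are shown. Insig1, Pmvk, Cyp51 and Acly were called between fractions with the block, and Hmgcs1 varied between tumours with most of the pathway. Each is the 250 bases before a RefSeq start site, read 5′ to 3′ along the gene, from a table in which 24 of the 30 members had an entry. Scd2, also called with the block, had none and is not shown. Capitals mark matches, on either strand, to the sterol regulatory element letters TCACNCCAC, to CCAAT (the NF-Y box), to CACGTG (an E-box) and to GGGCGG (a GC box).
Insig1 (GRCm38.p6, chr5:28071162-28071411, plus strand): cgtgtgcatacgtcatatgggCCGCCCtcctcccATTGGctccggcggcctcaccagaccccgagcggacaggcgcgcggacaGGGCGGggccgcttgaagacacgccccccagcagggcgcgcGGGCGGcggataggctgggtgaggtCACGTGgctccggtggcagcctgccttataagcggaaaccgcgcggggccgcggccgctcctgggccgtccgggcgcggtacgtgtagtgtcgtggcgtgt
Pmvk (GRCm38.p6, chr3:89454291-89454540, plus strand): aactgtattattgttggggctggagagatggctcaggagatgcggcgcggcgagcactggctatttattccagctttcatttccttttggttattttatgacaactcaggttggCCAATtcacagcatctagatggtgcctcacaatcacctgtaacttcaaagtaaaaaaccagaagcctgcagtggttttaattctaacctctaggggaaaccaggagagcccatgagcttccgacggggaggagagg
Cyp51 (GRCm38.p6, chr5:4104698-4104947, minus strand): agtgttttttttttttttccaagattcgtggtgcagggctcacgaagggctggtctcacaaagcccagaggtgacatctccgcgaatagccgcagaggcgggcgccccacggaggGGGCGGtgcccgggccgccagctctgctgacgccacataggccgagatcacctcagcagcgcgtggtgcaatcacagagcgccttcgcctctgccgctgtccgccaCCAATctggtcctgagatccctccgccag
Hmgcs1 (GRCm38.p6, chr13:119690101-119690350, plus strand): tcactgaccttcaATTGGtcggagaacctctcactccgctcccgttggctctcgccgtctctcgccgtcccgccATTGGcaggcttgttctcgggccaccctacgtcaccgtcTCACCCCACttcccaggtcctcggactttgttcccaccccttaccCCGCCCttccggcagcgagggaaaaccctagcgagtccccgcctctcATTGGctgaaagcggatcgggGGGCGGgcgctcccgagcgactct
Acly (GRCm38.p6, chr11:100528001-100528250, minus strand): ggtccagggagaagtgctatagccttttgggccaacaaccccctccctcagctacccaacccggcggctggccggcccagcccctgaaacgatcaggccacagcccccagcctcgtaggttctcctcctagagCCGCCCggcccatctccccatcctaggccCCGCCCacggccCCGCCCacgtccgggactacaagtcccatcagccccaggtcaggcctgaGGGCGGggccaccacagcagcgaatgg
The Hmgcs1 stretch held the sterol element letters once, CCAAT 3 times and the GC box 2 times. Insig1 held 1 CCAAT, 1 E-box and 3 GC boxes, Cyp51 held 1 CCAAT and 1 GC box, Pmvk 1 CCAAT, and Acly 4 GC boxes and no CCAAT. Counting every listed start site of a gene, CCAAT lay in this window in 19 of the 24 members (79.2%) and in 37.5% of all 27025 genes of the table. The GC box lay in 20 of 24 members (83.3%, against 35.4% of all genes), the E-box in 5 (20.8%, against 6.86%) and the sterol element letters in 1 (4.17%, against 1.22%). The 27025 genes were not limited to those that passed the filter on low counts, as all members did. The shares therefore compare unlike sets. A match is a run of letters and not a measured binding site. GENCODE M21 places the outermost starts of Insig1 and Cyp51 inside the stretches shown.

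Levels are given as CPM, counts per 1000000 counts of the library after TMM scaling. Means of CPM are given ± SD over the 5 libraries of a group, and log2 fold changes, PDPN-positive over PDPN-negative, ± SE. Library totals ran from 12597829 to 15406722 counts, and a member had between 16 and 8137 counts in a library. Of 10 macrophage markers, Itgam was higher (0.22 ± 0.06, edgeR adjusted p = 0.0347) and Csf1r lower (-0.24 ± 0.08, adjusted p = 0.0493) in PDPN-positive libraries, and with the tumour as a block Cd68 and Mertk were also higher and Fcgr1 lower (16675 to 19200.5 and 16856 to 20212 CPM in all). The most abundant of the 10, C1qa and C1qc, stood at 3631 and 3066 CPM in PDPN-negative and 3820.3 and 3120.6 CPM in PDPN-positive libraries and were not called. Markers of other cells moved between the fractions: 11 of 12 fibroblast markers were higher in PDPN-positive libraries (summed level 33.2 to 44.96 CPM in PDPN-negative and 309 to 502 in PDPN-positive libraries), as were 10 of 12 proliferation genes (587 to 896 and 869 to 1274 CPM). Lower were 4 of 5 tested eosinophil markers (58.6 to 149 and 4.76 to 14.4 CPM), 7 of 9 neutrophil markers, with 1 higher (413 to 616 and 312 to 655 CPM), 3 of 8 monocyte markers (1498 to 2260.4 and 1381 to 1554 CPM) and 2 of 6 dendritic cell markers (29.9 to 91.6 and 19.8 to 58.97 CPM). The neutrophil sum averaged 481 and 478 CPM, of which Mmp9, not called without the block, held 185 and 350 CPM (PDPN-negative and PDPN-positive). None of 9 tested epithelial tumour cell markers passed without the block (90.5 to 223 and 103 to 268 CPM), nor any of 4 endothelial markers (87.3 to 205 and 103 to 279 CPM). With the block, Cdh1 (0.72 ± 0.12, adjusted p = 0.00682) and Pecam1 of the endothelial list (0.44 ± 0.06, 0.000147) were higher and Epcam (0.0356) and Krt8 (0.0323) lower. The other tested endothelial markers in that fit, Tie1 (0.33 ± 0.16), Cdh5 (-0.09 ± 0.13) and Kdr (-0.30 ± 0.15), lay on both sides of 0 and were not called. In that fit 11 fibroblast and 11 proliferation markers and 2 neutrophil markers were higher, and 5 eosinophil, 7 neutrophil, 5 monocyte and 4 dendritic cell markers were lower. Adipocytes, which are rich in fatty acid synthesis enzymes, left almost no trace: their 10 markers summed to at most 2.21 CPM, Lep and Aqp7 had no count, and Adipoq had 5 counts in all PDPN-negative and 0 in all PDPN-positive libraries. The 8 lymphocyte markers were all below the filter, with the highest sum, 23.6 CPM, in PDPN-negative tumour 2. The part of the moving markers in the results that follow was not tested, and in bulk libraries a change in the number of cells of a type and in the RNA per cell cannot be told apart.

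The genes of SREBP control were measured first. Of the 5, none passed without the block, and Insig1 was lower with it, with a list median of -0.12 on the log2 scale against 0.01 over all genes tested. Insig1 (ENSMUSG00000045294, chromosome 5, 28071363 to 28078662, plus strand), whose product retains SCAP in the endoplasmic reticulum and which is itself an SREBP target, measured 111, 82.8, 91.7, 68.9 and 86.1 CPM in the PDPN-negative libraries of tumours 1, 2, 4, 5 and 6. In the PDPN-positive libraries of the same tumours it measured 84.8, 66.2, 78.2, 62.4 and 75.8 CPM. Every one of the 5 tumours had its lower value in the PDPN-positive library, although the 2 groups overlapped. The log2 fold change was -0.26 ± 0.12 without the block (SE, at an edgeR adjusted p of 0.174) and -0.25 ± 0.05 with it (adjusted p = 0.0016, 95% interval -0.36 to -0.15). The related gene Insig2, also a SCAP anchor, measured 21.01 ± 1.27 and 23.97 ± 2.86 CPM (SD, n = 5 each) and was higher in 5 of 5 tumours. It did not pass either test (adjusted p = 0.173, and 0.0511 with the block).

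The 2 INSIG genes had opposite signs in every tumour and were set side by side for that reason, as a description. An exact sign-flip permutation over the 5 tumours gave p = 0.0625. That is the smallest p it can give, and the pair was picked for its signs, so it cannot decide. The log2 ratio of PDPN-positive to PDPN-negative was larger for Insig2 than for Insig1 by 0.44 ± 0.08 (SD, n = 5 tumours). The transcription factor genes themselves did not pass. Srebf2 measured 254, 205, 202, 182 and 236 CPM in PDPN-negative and 230.3, 179.8, 208, 171 and 201 CPM in PDPN-positive libraries, in tumour order. The PDPN-positive value was the lower in 4 of 5 tumours, tumour 4 being the exception (log2 fold change -0.12 ± 0.10, edgeR adjusted p = 0.465, and 0.0809 with the block). Srebf1 measured 114 ± 9.39 and 120.2 ± 10.5 CPM (SD over 5 libraries), with 0.08 ± 0.07 as its log2 fold change. Scap measured 59.3 ± 7.38 and 54.3 ± 5.49 CPM, with a log2 fold change of -0.13 ± 0.09.

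The 7 genes of the mevalonate part turn acetyl-CoA into farnesyl diphosphate. None passed without the block, 5 of 7 had a lower fitted level in PDPN-positive libraries, and with the block Pmvk alone of the 7 was called. Pmvk (ENSMUSG00000027952, chromosome 3, 89454541 to 89469013, plus strand), which encodes phosphomevalonate kinase, measured 57.9, 45.2, 45.1, 43.6 and 88.04 CPM in PDPN-negative libraries. Its values in PDPN-positive libraries were 48.3, 41.9, 38.7, 40.6 and 55.8 CPM. The PDPN-positive library was lower in 5 of 5 tumours, with the widest gap in tumour 6, whose PDPN-negative library stood above the other 4. The blocked log2 fold change was -0.28 ± 0.08 (SE, at an edgeR adjusted p of 0.0166), and without tumour 1 the adjusted p was 0.0507. Hmgcs1, which encodes the enzyme that forms HMG-CoA, measured 112, 83.03, 94.9, 63.01 and 89.4 CPM in PDPN-negative and 90.1, 78.7, 81.7, 66.8 and 78.5 CPM in PDPN-positive libraries. Tumour 1 held the highest and tumour 5 the lowest value in each fraction. The difference between fractions did not pass (log2 fold change -0.16 ± 0.13 at an edgeR adjusted p of 0.469, and 0.0712 with the block).

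The remaining genes of the mevalonate part had log2 fold changes of -0.06 ± 0.14 for Acat2 (the cytosolic thiolase of the first step), 0.04 ± 0.09 for Mvk (mevalonate kinase), 0.09 ± 0.15 for Mvd (the decarboxylase), -0.34 ± 0.24 for Idi1 (the isomerase) and -0.13 ± 0.19 for Fdps (farnesyl diphosphate synthase), each with its SE. Idi1 was the lowest of the 30, at 2.09 ± 0.486 and 1.64 ± 0.503 CPM (SD, n = 5 each), with a 95% interval of -0.87 to 0.18 on the log2 scale. Fdps stood at only 5.18 ± 1.32 and 4.70 ± 0.797 CPM. Its exons overlap those of a second protein-coding gene model on the same strand in GENCODE M21, Gm43738. No gene of that name was found among the deposited counts. The sources used here do not say which gene models were counted or how reads shared between genes were treated. The level of Fdps is therefore uncertain.

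The 3 genes that lead from farnesyl diphosphate to lanosterol differed little between the fractions. Sqle, which encodes squalene epoxidase, a rate-limiting enzyme of the pathway, measured 64.97, 41.5, 47.4, 30.4 and 50.02 CPM in PDPN-negative and 59.7, 44.4, 56.9, 40.00 and 45.7 CPM in PDPN-positive libraries. Tumour 1 was again the highest and tumour 5 the lowest in both fractions, and the PDPN-positive value was higher in 3 of 5 tumours. The log2 fold change between fractions was 0.08 ± 0.18 (SE, at an edgeR adjusted p of 0.829), with a 95% interval of -0.07 to 0.26 in the blocked fit. Fdft1 (squalene synthase) and Lss (lanosterol synthase) had log2 fold changes of -0.07 ± 0.13 and 0.004693 ± 0.14, and the sign for Lss, as for Hsd17b7, turned under another scaling. The exons of Fdft1 overlap those of the cathepsin gene Ctsb on the opposite strand, which was measured at 5313 ± 963 and 5998 ± 575 CPM, and whether strand was used in counting is not given.

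Of the 8 genes from lanosterol to cholesterol, Cyp51 was lower with the block and none passed without it. Cyp51 (ENSMUSG00000001467, chromosome 5, 4081145 to 4104746, minus strand), which encodes lanosterol demethylase, measured 120.2, 79.95, 80.9, 55.7 and 90.2 CPM in PDPN-negative libraries. In PDPN-positive libraries it measured 82.9, 64.7, 74.2, 55.6 and 63.04 CPM. The gap was widest in tumours 1 and 6, and in tumour 5 the 2 fractions were nearly equal. The log2 fold change was -0.32 ± 0.18 without the block (SE, at an edgeR adjusted p of 0.272) and -0.30 ± 0.08 with it (adjusted p = 0.0132, and 0.0521 without tumour 2). Its exons overlap those of Akap9 on the opposite strand, a gene with a log2 fold change of 0.12 ± 0.07 (adjusted p = 0.31, and 0.084 with the block).

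The other post-lanosterol genes lay on both sides of 0. Lower in fitted level were Msmo1 (the methylsterol oxidase, -0.17 ± 0.13), Nsdhl (-0.15 ± 0.12) and, at the 0 line, Hsd17b7 (-0.001232 ± 0.15), which act with it on the methyl groups of the ring, the sterol isomerase gene Ebp (-0.08 ± 0.05) and the desaturase gene Sc5d (-0.12 ± 0.14). Higher in fitted level were Tm7sf2, a sterol reductase gene (0.20 ± 0.13), and Dhcr7, the reductase gene of the final step (0.06 ± 0.11), both on the log2 scale with SE. Tm7sf2 and Dhcr7 were higher in 5 of 5 tumours without passing either test (blocked adjusted p = 0.0905 and 0.354). Msmo1 was lower in 4 of 5 tumours, at 66.6 ± 13.5 and 59.00 ± 6.38 CPM (SD, n = 5 each, blocked adjusted p = 0.0533). Stard4, whose product moves cholesterol between membranes, measured 45.5 ± 12.2 and 42.4 ± 6.16 CPM, a log2 fold change of -0.10 ± 0.17 (SE). The 18 enzyme genes from Acat2 to Dhcr7 together summed to 807, 607, 661, 491 and 716 CPM in PDPN-negative and 702, 572, 631, 536 and 605 CPM in PDPN-positive libraries. In tumours 1, 2, 4 and 6 the PDPN-positive library had the lower sum, and in tumour 5 the higher.

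**Figure D1:**
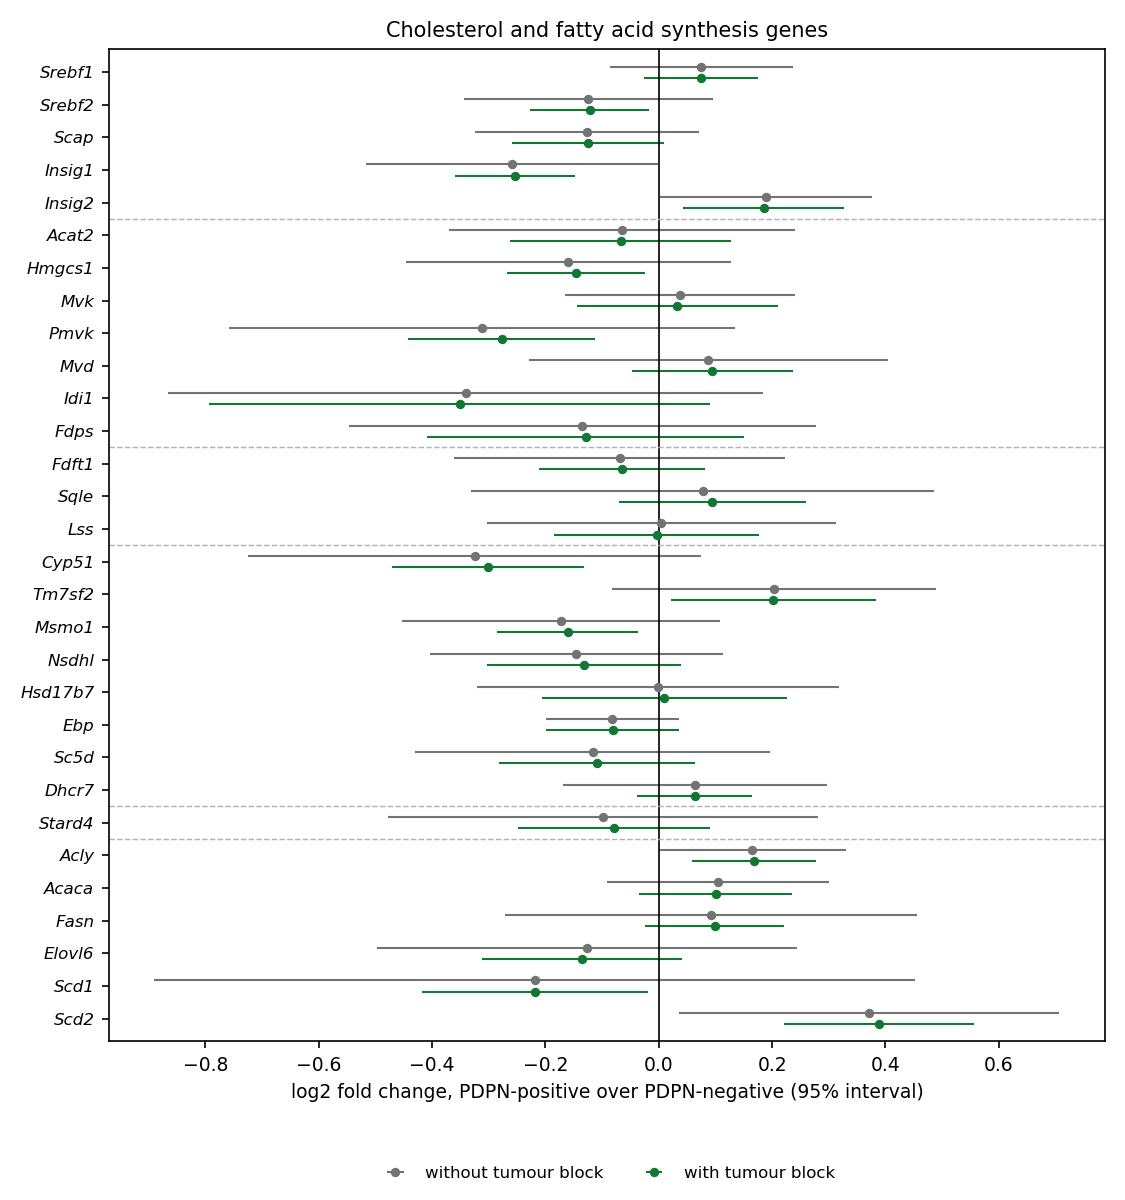
Log2 fold change of each of the 30 genes, PDPN-positive over PDPN-negative, with its 95% interval, from the fit without (grey) and with (green) the tumour as a block (n = 5 libraries a group); dashed lines part the roles, from SREBP control at the top to fatty acid synthesis at the bottom. The point estimates lie between -0.35 and 0.39, and the green intervals are narrower than the grey in all 30 genes.

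The members called higher with the block both belonged to fatty acid synthesis. Of its 6 genes, none passed without the block. With it 2, Acly and Scd2, were higher, where 13.8% of all genes were called higher. The median of the 6 log2 fold changes was 0.10, with 4 positive and 2 negative values. Scd2 (ENSMUSG00000025203, chromosome 19, 44293674 to 44306864, plus strand), which encodes a stearoyl-CoA desaturase that puts the double bond into saturated acyl chains, measured 502, 322, 407, 279 and 419 CPM in PDPN-negative libraries. In PDPN-positive libraries it measured 549, 390.1, 525, 471 and 561 CPM. The PDPN-positive value was higher in 5 of 5 tumours, most of all in tumour 5, but the groups overlapped, since PDPN-negative tumour 1 lay above PDPN-positive tumours 2 and 5. The log2 fold change was 0.37 ± 0.15 without the block (SE, at an edgeR adjusted p of 0.136) and 0.39 ± 0.08 with it (adjusted p = 0.00306, a 95% interval of 0.22 to 0.56), or 1.31-fold.

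Acly (ENSMUSG00000020917, chromosome 11, 100476353 to 100528000, minus strand), whose product ATP citrate lyase supplies cytosolic acetyl-CoA to both pathways, measured 564, 463, 484, 436 and 491 CPM in PDPN-negative libraries. In PDPN-positive libraries it measured 563, 552, 530.3, 499 and 591 CPM. It was higher in 4 of 5 tumours and level in tumour 1. The blocked log2 fold change was 0.17 ± 0.05 (SE, at an edgeR adjusted p of 0.0235). That call was lost when both libraries of tumour 2, 4, 5 or 6 were left out (adjusted p up to 0.119). Without the block, Acly and Scd2 passed when PDPN-negative tumour 1 was left out (adjusted p = 0.0495 and 0.0383).

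The other desaturase gene, Scd1, went the other way without passing. It measured 14.9, 14.3, 10.02, 5.55 and 14.1 CPM in PDPN-negative and 14.1, 11.3, 9.78, 4.80 and 10.5 CPM in PDPN-positive libraries, lower in 5 of 5 tumours, with tumour 5 far below the rest in both fractions. The log2 fold change was -0.22 ± 0.30 (SE, at an edgeR adjusted p of 0.687, and 0.0964 with the block). The log2 ratio of Scd2 exceeded that of Scd1 by 0.61 ± 0.31 (SD, n = 5 tumours). This pair was also chosen for its opposite signs. The exact sign-flip permutation gave it the same smallest p, 0.0625, and cannot decide here either. Fasn, the fatty acid synthase gene, measured 224, 154, 162, 126 and 195 CPM in PDPN-negative and 226, 172, 202, 135 and 181 CPM in PDPN-positive libraries. Its values followed the tumour more than the fraction (log2 fold change 0.09 ± 0.16 SE, adjusted p = 0.761). Acaca, which encodes acetyl-CoA carboxylase and supplies malonyl-CoA, had a log2 fold change of 0.10 ± 0.09 and was higher in 5 of 5 tumours. Elovl6, the elongase gene that turns palmitoyl-CoA into stearoyl-CoA, had -0.13 ± 0.17.

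**Figure D2:**
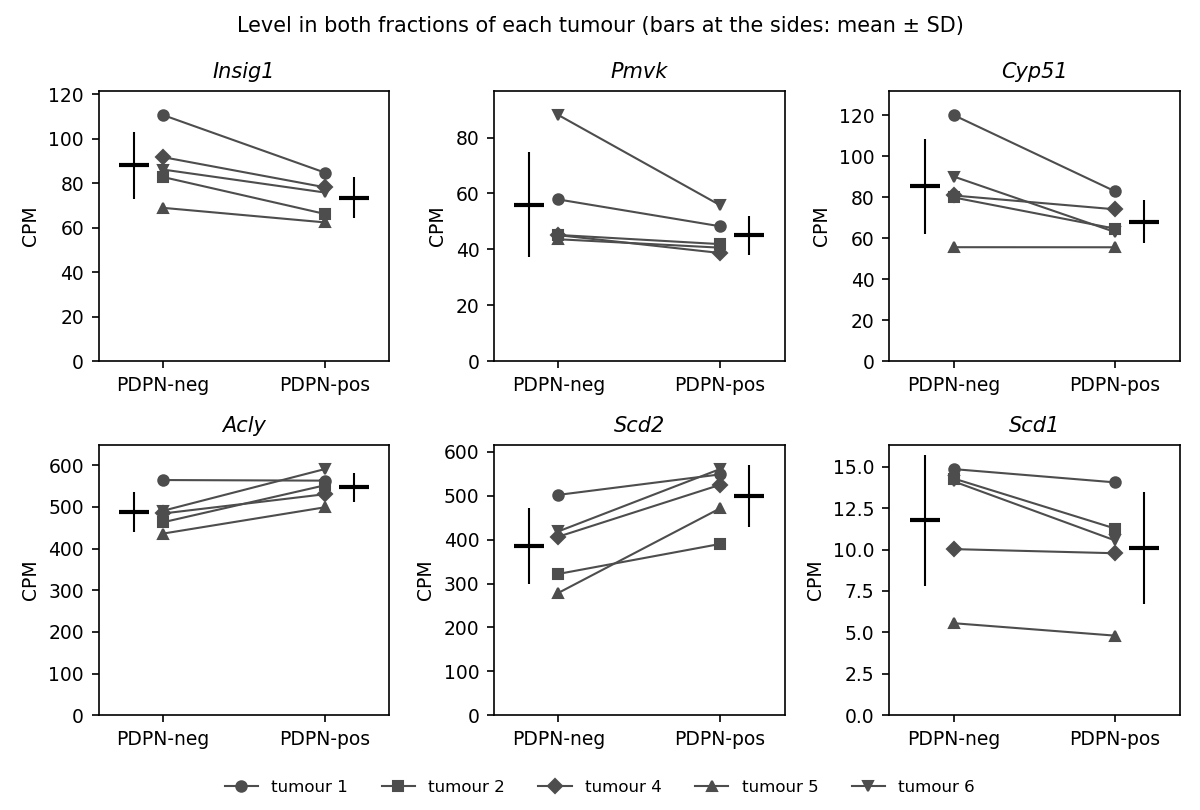
CPM of 6 genes in the PDPN-negative and PDPN-positive library of each tumour (lines join the 2 libraries of a tumour; side bars are mean ± SD, n = 5), with each axis starting at 0. Insig1, Pmvk and Cyp51 slope down and Scd2 slopes up in all tumours, Cyp51 almost level in tumour 5, while the tumours keep much of their order.

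The size of difference that these libraries allow was read from the intervals. No member had groups that did not overlap, in either direction, against 10.5% of all genes tested (5.38% with PDPN-positive higher and 5.13% lower). Of the 30, 5 were higher in each of the 5 tumours (Insig2, Tm7sf2, Dhcr7, Acaca and Scd2; 17.4% of all genes) and 5 lower (Insig1, Pmvk, Idi1, Cyp51 and Scd1; 17.6%). In the edgeR fit without the block, 4 of the 30 had an unadjusted p under 0.05 (13.3%, against 28.3% of all genes), and DESeq2 without the block called none. The 95% intervals of all 30 lay inside a log2 change of 1 in either direction, that is 2-fold, in both fits. Inside 0.5 in either direction lay 23 of 30 without and 28 of 30 with the block. The median over the 30 was -0.08 on the log2 scale, with 12 positive and 18 negative values. A p that misses the threshold does not show that the 2 fractions are alike.

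The tumours were compared next. The joint test of the tumour terms, chosen after the values were seen, called 17 of 30 members (edgeR quasi-likelihood test in the blocked fit, adjusted over all genes), where 13.7% of all genes were called. Called were 10 of the 18 sterol enzyme genes, 4 of the 6 fatty acid genes (Fasn, Elovl6, Scd1 and Scd2), Srebf2 and Insig1 of the control genes, and Stard4. Averaged over both fractions on the log2 scale, tumour 1 was highest for 24 of the 30 and tumour 5 lowest for 25. The span from the lowest to the highest tumour was 2.80-fold for Scd1 (adjusted p = 0.00036), 1.79-fold for Cyp51 (0.00982), 1.79-fold for Sqle (0.00548), 1.72-fold for Fasn (0.00097) and 1.55-fold for Hmgcs1 (0.00447). It was smallest for Ebp, at 1.05-fold (adjusted p = 0.938). For 29 of 30 members (96.7%), all but Ebp, the span between tumours exceeded the mean difference between fractions. A range over 5 tumours is set here against 1 difference, and the same held for 83.3% of all genes tested.

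Tumours 1 and 5 were then compared within each fraction. Tumour 1 was above tumour 5 in the PDPN-negative and also in the PDPN-positive pair of libraries for 28 of 30 members (93.3%), as for 33.6% of all genes tested, a description of tumours picked for their values. The 6 fatty acid genes summed to 1356, 992, 1108, 884 and 1160.4 CPM in PDPN-negative and 1402, 1166, 1317, 1143 and 1383 CPM in PDPN-positive libraries. In that sum each tumour's PDPN-positive library was the higher, but Acly and Scd2 made up 80.6% of it. The other 4 genes summed to 289.3 and 290.1 CPM in tumour 1, 206.9 and 224.1 in tumour 2, 217.1 and 261.5 in tumour 4, 169.0 and 173.3 in tumour 5, and 250.7 and 232.2 in tumour 6 (PDPN-negative and PDPN-positive), so without those 2 genes tumour 1 was level and tumour 6 was lower in the PDPN-positive library. Leaving out tumour 1 or tumour 5 brought the count of members differing between tumours from 17 to 9 or 10, where 9.25% and 10.3% of all genes were called. Proliferation genes moved with the tumours in part: their sum was highest in tumour 1 in both fractions (895.7 and 1274 CPM) and in tumour 5 was 587.1 and 922.0 CPM, the lowest of the PDPN-negative and the second lowest of the PDPN-positive libraries. Endothelial markers, of whose sum Pecam1 made up 78.6%, were lowest in tumour 1 in both fractions (87.3 and 102.6 CPM), also without Pecam1 (24.5 and 27.5 CPM), and summed to 190.3 and 278.7 CPM in tumour 5. Cdh1, which made up 67.1% of the epithelial sum, was lowest in tumour 1 (37.7 and 52.9 CPM) and highest in tumour 6 (156.9 and 212.5 CPM). The other epithelial markers were lowest in tumour 2 (46.4 and 31.5 CPM) and stood at 52.9 and 49.7 CPM in tumour 1. The part of these in the differences between tumours was not tested. The labels name no preparation or sequencing batch, so the tumour and the handling of its sample cannot be told apart.

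**Figure D3:**
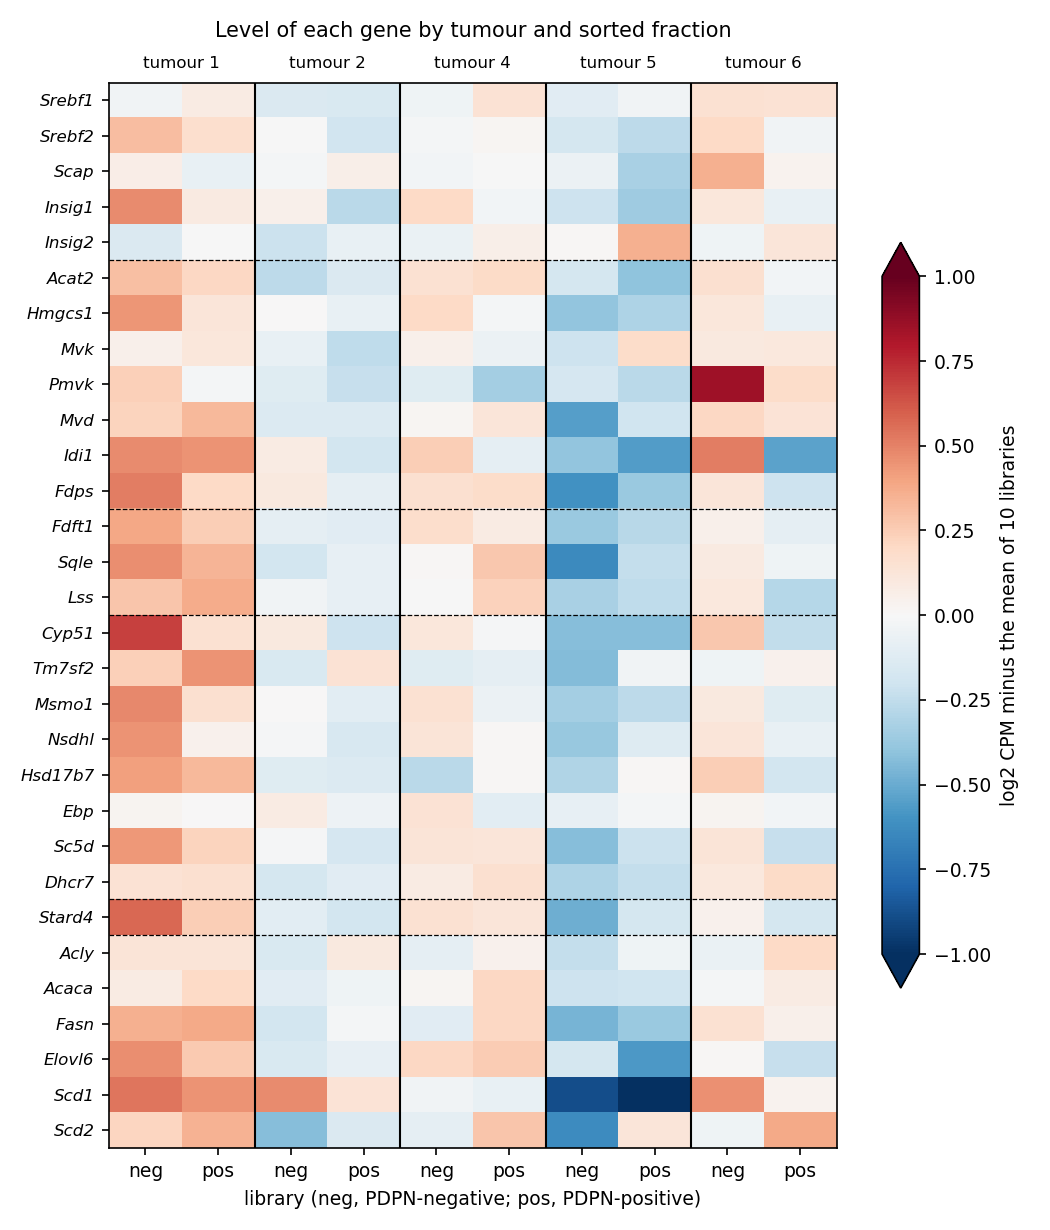
Heat map of the 30 genes (rows, by role) in 10 libraries (columns, in pairs by tumour); colour is log2 CPM minus the gene's mean over the 10 libraries. Most rows are red in tumour 1 and blue in tumour 5 in both fractions.

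**Figure D4:**
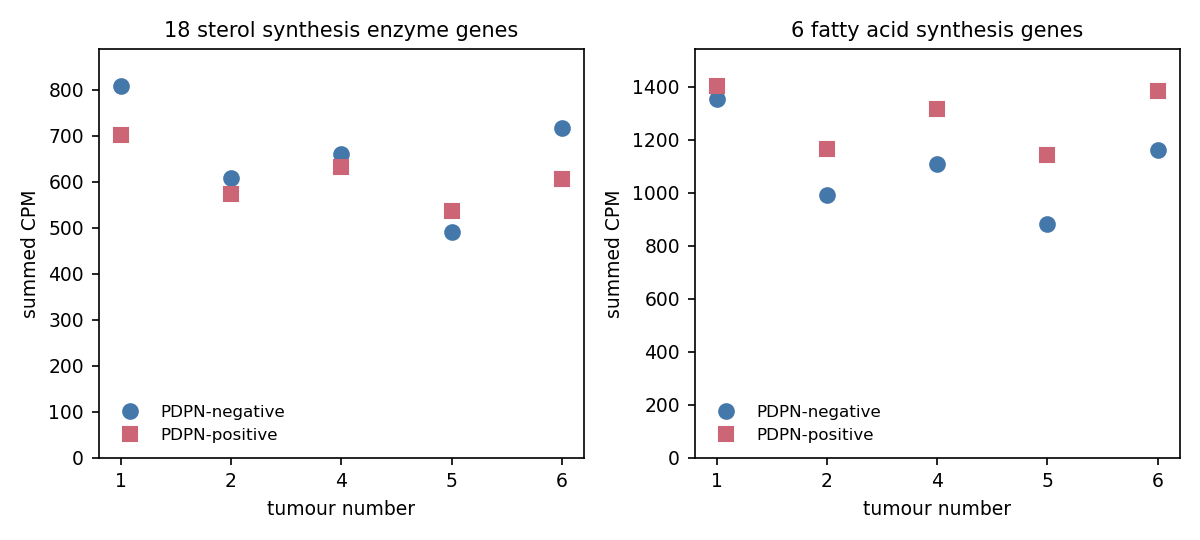
Summed CPM of the 18 sterol synthesis enzyme genes (left) and the 6 fatty acid synthesis genes (right) by tumour number, for the PDPN-negative (circles) and the PDPN-positive (squares) library. The sterol sum runs from 490.8 to 806.9 CPM, and in the fatty acid sum, 80.6% of which is Acly and Scd2, the squares lie above the circles in 5 of 5 tumours.

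Compared per length, as CPM per kilobase of annotated exon, the 2 highest members belonged to fatty acid synthesis. Acly stood at 92.4 and 104 and Scd2 at 70.6 and 91.3 CPM per kilobase in PDPN-negative and PDPN-positive libraries. Next came Pmvk (32.7 and 26.3), Srebf2 (30.1 and 27.6), Insig1 (28.5 and 23.8), Ebp (24.6 and 23.2) and Srebf1 (20.2 and 21.3), whose order depended on the fraction. Scd1, at 2.41 and 2.06 CPM per kilobase, was far below Scd2. The lowest were Idi1 (0.597 and 0.468), Fdps (1.23 and 1.12) and Acaca (1.35 and 1.45). Exons of 11 members overlap those of another annotated gene, in 5 cases a protein-coding one, which makes the levels of these genes less certain.

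The rest of the pathway was read from 3 further lists. Of 16 other genes of sterol synthesis and SREBP processing, 1 was lower and none higher without the block. Over all genes tested, 13.6% were called in either direction in that fit. The lower gene was Erlin1, which encodes a membrane protein of the endoplasmic reticulum that binds cholesterol and restrains the SREBPs. It measured 78.9 ± 2.07 and 66.8 ± 1.43 CPM (SD over 5 libraries). Its log2 fold change was -0.24 ± 0.05 at an edgeR adjusted p of 0.00422. Its groups did not overlap, as for 10.5% of all genes tested, and the call held on leaving out any 1 library. With the block Erlin1 was lower too, as were Lbr, which encodes a sterol reductase of the nuclear envelope (-0.21 ± 0.05, adjusted p = 0.00398), and Rnf145, which encodes a ubiquitin ligase of the endoplasmic reticulum (-0.22 ± 0.05, 0.00232). The share of all genes called in either direction with the block was 28.2%.

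Of 15 tested genes of lipoprotein uptake and acyl chain supply, 1 was higher and none lower without the block, where 13.6% of all genes were called. Lpin1, a phosphatidate phosphatase gene of glycerolipid synthesis, went from 22.6 ± 2.91 to 31.6 ± 4.42 CPM and was the higher in each tumour's PDPN-positive library (edgeR adjusted p of 0.0122). With the block Tmem97 was also higher (0.23 ± 0.07, adjusted p = 0.0245), and the elongase gene Elovl5 (-0.17 ± 0.05, 0.0204) and the acyl-CoA synthetase gene Acsl3 (-0.33 ± 0.08, 0.00704) were lower. Again 28.2% of all genes were called in either direction in the blocked fit. The list median was -0.06 and that of the 16 genes above -0.03 on the log2 scale.

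Genes that modify or export finished sterols were called in both directions. Of 16 genes of sterol efflux, storage and LXR, 3 were higher and 2 lower, where 13.6% of all genes were called in either direction (list median -0.01 on the log2 scale). Ch25h, whose product makes 25-hydroxycholesterol, an oxysterol that binds INSIG, measured 71.4, 66.6, 81.1, 97.5 and 92.1 CPM in PDPN-negative and 126, 129, 188, 237 and 259.8 CPM in PDPN-positive libraries, with no overlap (log2 fold change 1.20 ± 0.22, edgeR adjusted p of 0.00608). Cyp27a1, which makes 27-hydroxycholesterol, was lower, at 68.5 ± 8.64 and 40.1 ± 3.30 CPM, a log2 fold change of -0.77 ± 0.09 (edgeR adjusted p of 0.000157). The efflux pump gene Abca1 rose from 654 ± 84.3 to 880.5 ± 84.8 CPM (adjusted p = 0.0115). Nceh1, a cholesteryl ester hydrolase gene, rose by 0.24 ± 0.06 on the log2 scale (adjusted p = 0.0207, and 0.0577 without PDPN-negative tumour 2). Pltp, the phospholipid transfer protein gene, fell from 888 ± 464 to 347 ± 75.2 CPM (adjusted p = 0.0383), a call lost on leaving out any of 7 libraries (PDPN-negative tumour 2, 4 or 5 or PDPN-positive tumour 1, 2, 4 or 6; adjusted p up to 0.0903) and with no filter on low counts. With the block 5 were higher and 5 lower, where 28.2% of all genes were called in either direction. The additions were Soat1 and Npc1 (higher) and Nr1h3, Apoe and Lpcat3 (lower).

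**Figure D5:**
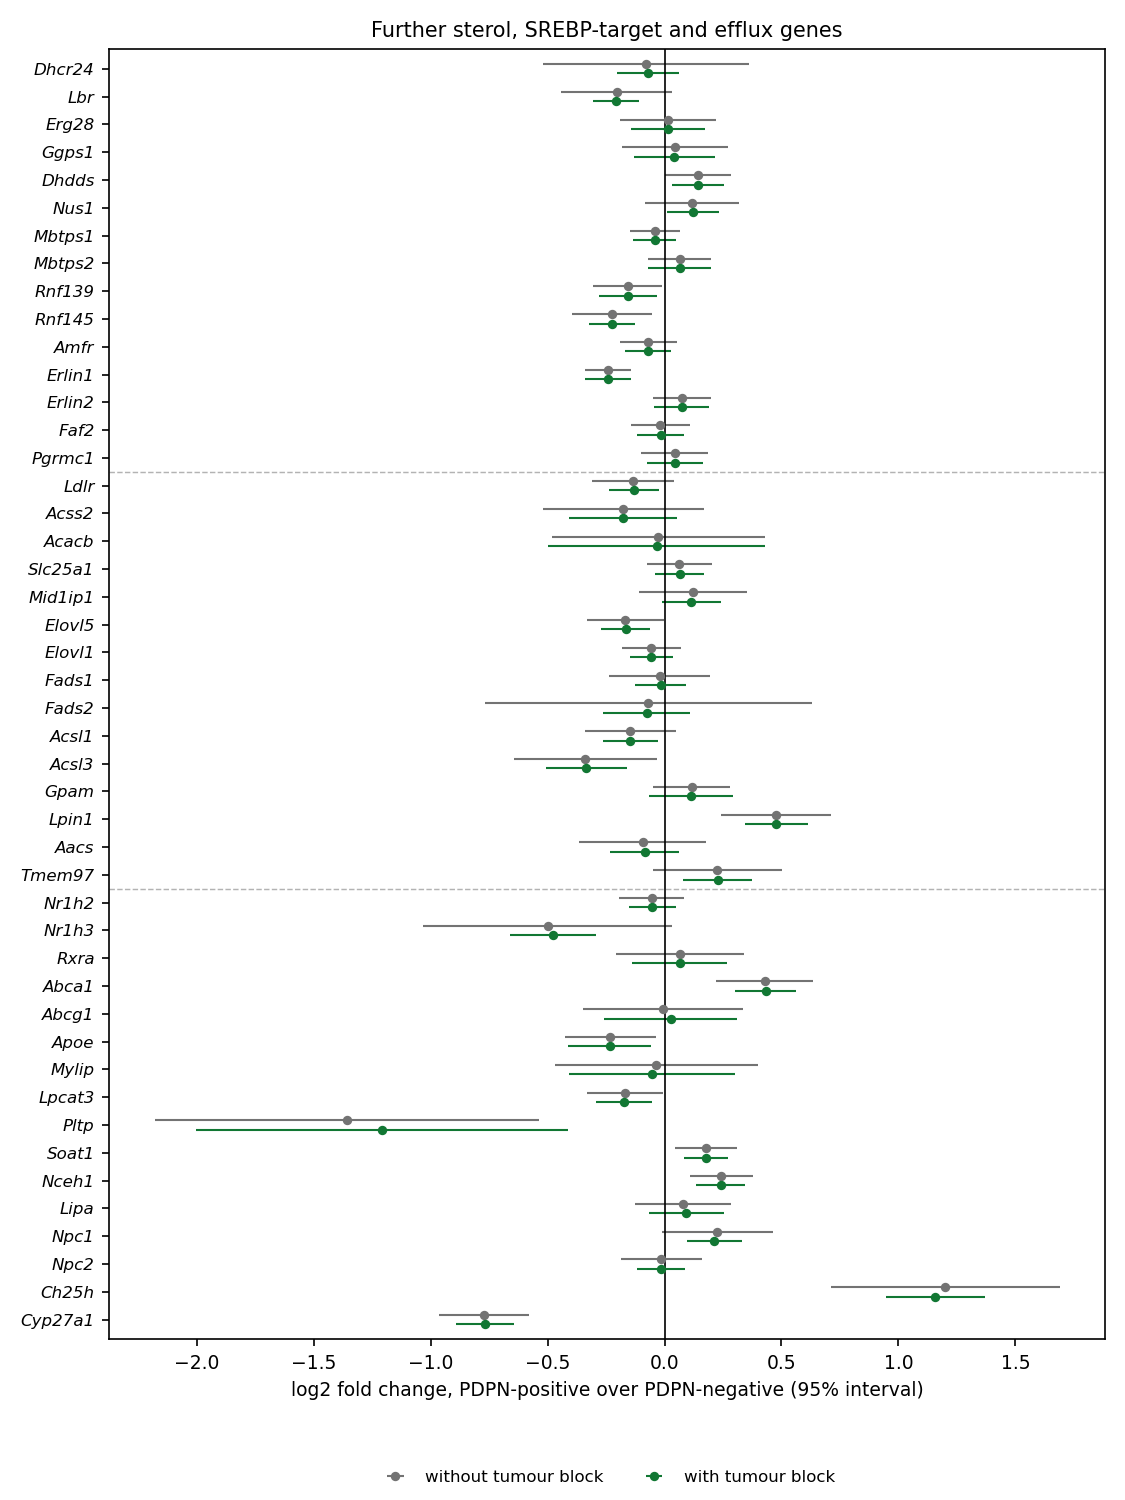
Log2 fold change, PDPN-positive over PDPN-negative, with its 95% interval, of genes of the 3 further lists, from the fit without (grey) and with (green) the tumour as a block; dashed lines part sterol synthesis and SREBP processing (top), uptake and acyl chain supply (middle) and efflux, storage and LXR (bottom). Ch25h at 1.20 and Pltp at -1.36 lie farthest from 0.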

How the data were processed

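RNA was pre-amplified with SMART-Seq after the sort, per the labels' protocols; no molecular identifiers are named there, so counts are reads. The authors deposited 1 table of raw counts for 46603 genes. The submitters' processing notes name STAR 2.5.2b, featureCounts 1.5.3, cutadapt 1.15 and Bowtie2 2.3.3.1. Settings, genome build, strand and multi-mapping: not given in the sources used here.

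Groups came from the labels, and columns were matched to samples by title. Counts were tested in edgeR 4.0.16 (R 4.3.3): 13595 genes passed filterByExpr (by group, with a minimum count of 10 and a total of at least 15), followed by TMM scaling, and robust glmQLFit and glmQLFTest with group as the only term. Benjamini-Hochberg adjustment ran over all genes tested, and a call is an adjusted p under 0.05. The SE is the absolute log2 fold change divided by the square root of the F statistic, and 95% intervals use it with the fit's degrees of freedom. Both fractions of a tumour share its number in the labels, and in each of the 5 pairs the deviations from the group means correlated (r from 0.257 to 0.552 across genes, on log2 of CPM plus 1). The blocked fit therefore adds the tumour number, and the same fit gave the joint test between tumours. Where the labels do not name separate mice, p-values measure the spread between these libraries or tumours. DESeq2 1.42.0, RLE size factors, library size alone, no filter on low counts, and leaving out each library or tumour were the alternatives. Gene positions and exon lengths come from GENCODE M21 (GRCm38), which is not stated to be the build of the counts, and promoter stretches from RefSeq (GRCm38.p6).

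The members, gene lists and named genes were chosen with earlier results of these data known. All 30 members are named, with up to 6 called genes of each further pathway list by lowest p, and the 2 most abundant macrophage markers. Genes called in the blocked fit alone, the paralogue pairs and the tumours compared were chosen after their values were seen. So were the sums without their largest genes, Gm43738, Ctsb, Akap9, Vps51, Mmp9, Lep, Aqp7 and Adipoq. The macrophage, epithelial and endothelial markers named for their calls were also chosen in this way. The values of 1 further gene are not reported here.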

Additional observations from a re-analysis of the deposited data

Results flagged for a closer look

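Scap stood out in 1 library. In PDPN-negative tumour 6 it measured 72.1 CPM, above the 54.1 to 59.0 CPM of the other 4 PDPN-negative libraries, a gap of 0.728 of the group's whole range, where Dixon's critical value for 5 samples is 0.71. This was 1 of 60 groups of 5 libraries examined over the 30 members, and chance flags about 1 group in 20.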

How the results depend on the processing

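With the tumour as a block, 2 members were higher and 3 lower, in edgeR and also in DESeq2, where without it none passed in edgeR; a blocked fit with RLE size factors (chosen after the data were seen) gave 2 higher and 4 lower, and with library size alone 2 and 3. Without the block, DESeq2, RLE size factors, library size alone and no filter on low counts called none. Leaving out libraries or tumours, with and without the block, gave 0 to 2 members higher and 0 to 6 lower (6 in the blocked fit without tumour 5, with Hmgcs1, Msmo1 and Nsdhl added, and Srebf2 added without tumour 4), and a list median of -0.138 to 0.01537. Of the calls in the blocked fit, Insig1 and Scd2 held without any 1 tumour (adjusted p at most 0.0133 and 0.0184). The list median was -0.07322 with the block, and between the other settings moved by less than its spread between tumours. The count of members differing between tumours was 17 to 19 with another scaling and 9 to 19 without 1 tumour. Between fits on all libraries, the sign turned for 2 genes: Lss had -0.003992 with the block, -0.001667 with DESeq2, -0.01183 with DESeq2 and the block, -0.0008779 with RLE size factors and -0.009714 with these and the block, and Hsd17b7 had 0.009636, 0.005868 (DESeq2), 0.003846 (RLE) and 0.01794 (library size) with the block and 0.00651 with library size alone. Leaving out libraries or tumours turned the sign of 10 genes, with log2 fold changes of -0.1348 to 0.01736 for Acat2, -0.1585 to 0.02627 for Fdft1, -0.08889 to 0.1176 for Hsd17b7, -0.2109 to 0.05597 for Stard4, -0.09761 to 0.09454 for Lss, -0.05908 to 0.1003 for Mvk, -0.02029 to 0.1545 for Mvd, -0.04485 to 0.2227 for Sqle, -0.001073 to 0.1262 for Dhcr7 and -0.0005267 to 0.2048 for Fasn. The cause of these turns was not tested. Idi1 had the fewest counts of the 30, from 16 to 35 in a library.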

Other observations

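The spread between libraries of a group was wider in the PDPN-negative fraction for 22 of the 30 members (73.3%), and for 59.5% of all genes tested. Over 5 libraries, the members' median SD of log2(CPM + 0.5) came to 0.283 for PDPN-negative and 0.199 for PDPN-positive cells, and to 0.164 and 0.144 over all genes. The 18 sterol enzyme genes summed to 656.3 ± 118.4 CPM (PDPN-negative) and 609.4 ± 63.1 CPM (PDPN-positive; SD, n = 5 each). This was noticed in the data and has no test.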
